A study of Mus musculus with 30 samples.

Results

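The genes described here are 48 DNA replication and G1/S genes, taken by symbol from the deposited count table of 32361 genes. All 48 were found once each and all 48 were among the 15119 genes with enough counts to be tested. The table holds RNA sequencing counts of mouse bone marrow-derived macrophages in 30 libraries, 3 for each of 10 groups. Cells came from C57BL/6J wild-type (WT) mice or from mice lacking Ticam2 (Ticam2-/-, here KO), with 3 animals per genotype, and each replicate held the cells of 1 animal. Untreated cells were compared with cells that had received 10 ng/mL of LPS, or 100 ng/mL of LTA, and are labelled 2 h or 6 h. The treatment text speaks of both times but names only 6 h for the harvest, and the labels were taken as given. In every group, including the untreated one, the macrophages had been grown from whole bone marrow in medium with L929 cell supernatant, a source of the growth factor M-CSF. Ticam2 encodes TRAM, the adaptor that links the LPS receptor TLR4 to TRIF, and LTA (lipoteichoic acid) is a ligand of TLR2.

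DNA replication starts from licensed origins. In G1 the loaders Cdc6 and Cdt1 place the MCM helicase on origin DNA, and at the start of S phase Cdc45, the GINS complex and Mcm10 turn it into an active helicase. Primase and the polymerases then copy both strands on a template that RPA coats, with PCNA as the sliding clamp and the RFC complex as its loader. E2F factors and cyclin E drive the entry into S phase, and many replication genes are E2F targets. M-CSF keeps cultured bone marrow-derived macrophages dividing, and activated macrophages are known to leave the cell cycle. In bulk RNA a lower share of cells in S phase and less RNA per cell cannot be told apart.

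Promoter sequences are shown first because E2F factors are known regulators of many of these genes. RefSeq promoter windows (GRCm38.p6, from 250 bases before to 50 bases after the start) were found for 39 of the 48 genes. They were searched on both strands for the E2F-type motifs TTTCCCGC, TTTGGCGC, TTTCGCGC and TTTGCCGC, of which no pair can match at the same position of a strand. Some genes have more than 1 window, and the 39 genes have 47. At least 1 motif was present in 16 of the 47 windows (34.0%), against 744 of all 32851 windows (2.26%). CCAAT, searched the same way, was present in 27 of the 47 (57.4%) and in 37.4% of all windows. Below, each gene is taken with the 1 window nearest its annotated start, and by that window 13 of the 39 genes hold an E2F-type motif and 23 hold CCAAT. The windows below are taken from the genes with a match only. For each role that has one, the window is that of the matched gene with the largest fall in WT after 6 h of LPS. Genes of a role without a match could fall further, such as Rfc4 (log2 change -2.68) beside Rfc3 (-0.29). Each is printed 5′ to 3′ on the gene's strand, with the matches in capitals.
Cdc6, a helicase loader, chr11:98907901-98908200, plus strand: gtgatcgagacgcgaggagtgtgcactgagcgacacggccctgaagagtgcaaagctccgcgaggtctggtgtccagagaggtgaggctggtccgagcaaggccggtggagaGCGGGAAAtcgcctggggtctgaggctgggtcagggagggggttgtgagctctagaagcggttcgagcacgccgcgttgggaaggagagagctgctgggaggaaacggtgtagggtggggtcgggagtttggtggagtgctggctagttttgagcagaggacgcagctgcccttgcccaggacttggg
Gins3, a GINS subunit, chr8:95633309-95633608, plus strand: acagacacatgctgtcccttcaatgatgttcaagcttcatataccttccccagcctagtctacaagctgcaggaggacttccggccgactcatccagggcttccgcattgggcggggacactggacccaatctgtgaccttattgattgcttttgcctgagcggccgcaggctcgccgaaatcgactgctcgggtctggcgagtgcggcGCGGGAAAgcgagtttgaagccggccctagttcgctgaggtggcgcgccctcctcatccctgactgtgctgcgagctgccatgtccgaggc
Rfc3, a clamp loader subunit, chr5:151651159-151651458, minus strand: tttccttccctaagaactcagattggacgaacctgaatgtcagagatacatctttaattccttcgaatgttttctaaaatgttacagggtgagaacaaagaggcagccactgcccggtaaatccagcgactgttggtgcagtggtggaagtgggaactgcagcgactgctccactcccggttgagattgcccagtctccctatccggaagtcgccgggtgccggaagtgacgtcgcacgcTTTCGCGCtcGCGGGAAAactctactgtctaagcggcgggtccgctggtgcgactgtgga
Pole2, a subunit of polymerase epsilon, chr12:69228141-69228440, minus strand: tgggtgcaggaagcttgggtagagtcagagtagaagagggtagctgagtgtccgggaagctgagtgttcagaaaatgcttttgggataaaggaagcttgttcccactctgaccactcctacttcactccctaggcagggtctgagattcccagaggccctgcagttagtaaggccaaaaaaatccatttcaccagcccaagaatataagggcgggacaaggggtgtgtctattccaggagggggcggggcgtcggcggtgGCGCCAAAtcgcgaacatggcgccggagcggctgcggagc
E2f2, an E2F activator, chr4:136172024-136172323, plus strand: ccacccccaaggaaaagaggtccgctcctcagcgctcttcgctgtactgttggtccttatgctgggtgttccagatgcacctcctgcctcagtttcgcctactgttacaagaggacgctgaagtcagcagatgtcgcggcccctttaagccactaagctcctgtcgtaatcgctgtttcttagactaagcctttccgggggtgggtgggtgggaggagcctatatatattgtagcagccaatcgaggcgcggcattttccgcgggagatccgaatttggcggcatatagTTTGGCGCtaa
Cdca7, a chromatin factor, chr2:72475969-72476268, plus strand: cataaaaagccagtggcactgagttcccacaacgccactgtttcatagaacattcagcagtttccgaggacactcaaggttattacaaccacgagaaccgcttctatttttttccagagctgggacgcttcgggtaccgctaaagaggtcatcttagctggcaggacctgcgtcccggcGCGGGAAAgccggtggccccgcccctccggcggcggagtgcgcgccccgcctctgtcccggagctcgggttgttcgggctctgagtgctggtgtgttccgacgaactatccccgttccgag
A match is a description of the letters and not a measured binding site. The 13 genes with a match had a median log2 change of -2.79 in WT after 6 h of LPS (range -6.45 to -0.29), and the 26 without one had -2.48 (range -5.92 to -0.57). Rfc3, with 2 matches close together, had the smallest fall of the 48, and Cdca7, with 1, had the largest.

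Ticam2 was counted 120 to 145 times in the untreated WT libraries and 5 to 10 times in the untreated KO libraries, and no source used here gives the position of the deletion. Library totals were 10641070 to 13521660 counts in the 18 untreated and 6 h libraries and 1334784 to 2658329 in the 12 libraries of 2 h. The 2 h libraries also stood apart in content. Hbb-bs, a hemoglobin gene, was at 0 in all 12 of them and at 2095 to 3012 CPM (read counts scaled to a common library size, here by the library total) in the others, and Alb was at 38.3 to 82.3 CPM in the 12 and at 0 elsewhere. A change from untreated to 2 h therefore cannot be told apart from the change of library set, while KO and WT at 2 h were compared within 1 set.

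Summed over the 48 genes, untreated WT cells held 2693 ± 20.0 CPM (here and below TMM-normalised, mean ± SD, n = 3) and untreated KO cells 2934 ± 38.8. After 6 h the sum was 673 ± 11.8 with LPS and 614 ± 12.3 with LTA in WT. In KO it was 1475 ± 11.9 with LPS and 1571 ± 15.9 with LTA. WT cells thus kept 24.98% and 22.8% of their untreated sum with LPS and LTA, and KO cells 50.3% and 53.5%. By library total, without normalisation factors, these shares became 15.4% (LPS) and 15.1% (LTA) for WT, while KO had 44.0% (LPS) and 47.2% (LTA). At 2 h the order of the genotypes was the other way around, with 2238 ± 56.3 and 2202 ± 24.7 in WT and 1684 ± 14.5 and 1751 ± 20.9 in KO for LPS and LTA. The 3 libraries of a group lay close together, and the WT and KO groups did not overlap in any of the 5 conditions.

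**Figure D1:**
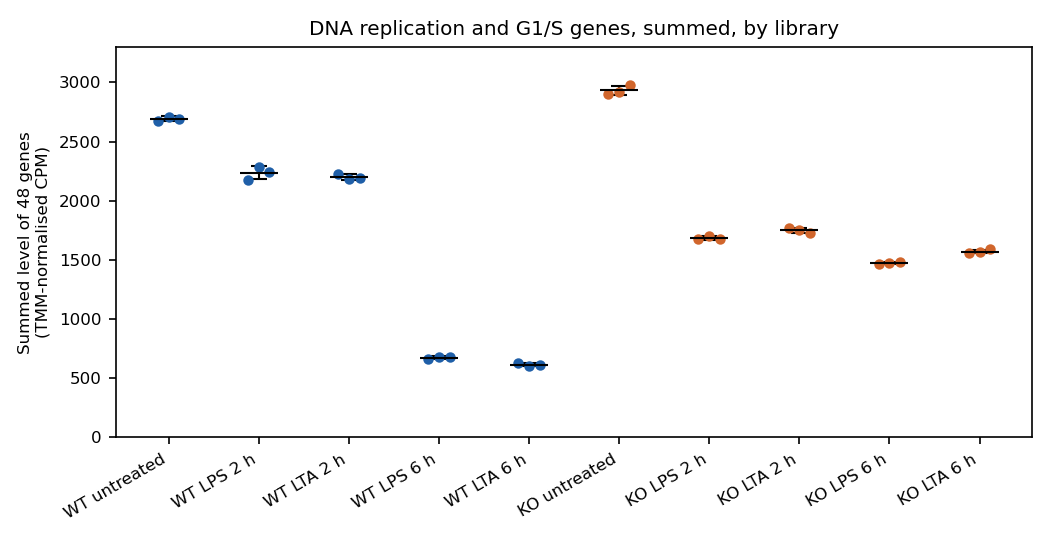
Summed level of the 48 genes (y axis, TMM-normalised CPM, from 0) in each library of the 10 groups (x axis), with WT in blue and KO in orange. Bars give the group mean ± SD (n = 3). The WT groups of 6 h sit at 673 and 614 CPM and the KO groups at 1475 and 1571, while at 2 h the KO groups lie below the WT groups.

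Each of the 48 genes fell in WT macrophages after 6 h of either ligand. With LPS the log2 changes ran from -6.45 to -0.29 with a median of -2.53, and 44 genes fell at least 2-fold. With LTA, against the same untreated libraries, they ran from -5.99 to -0.50 with a median of -2.27. In KO all 48 also fell, but within a narrower range, from -1.80 to -0.27 with LPS (median -1.08) and from -1.65 to -0.29 with LTA (median -0.93). Of all genes tested, 36.1% were called lower in WT with LPS, 35.9% in WT with LTA, 26.6% in KO with LPS and 26.5% in KO with LTA (edgeR's quasi-likelihood test, adjusted p under 0.05 by Benjamini-Hochberg), with medians near 0. Falls of at least 2-fold were called for 44 of the 48 with each ligand in WT, and for 28 with LPS and 17 with LTA in KO. Among all genes such falls made up 17.6% in WT with LPS and 17.6% with LTA, and 4.17% and 4.48% in KO. Treated and untreated libraries did not overlap for any of the 48 in any of these 4 comparisons, as for 74.4%, 74.7%, 58.1% and 60.3% of all genes in the same order.

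**Figure D2:**
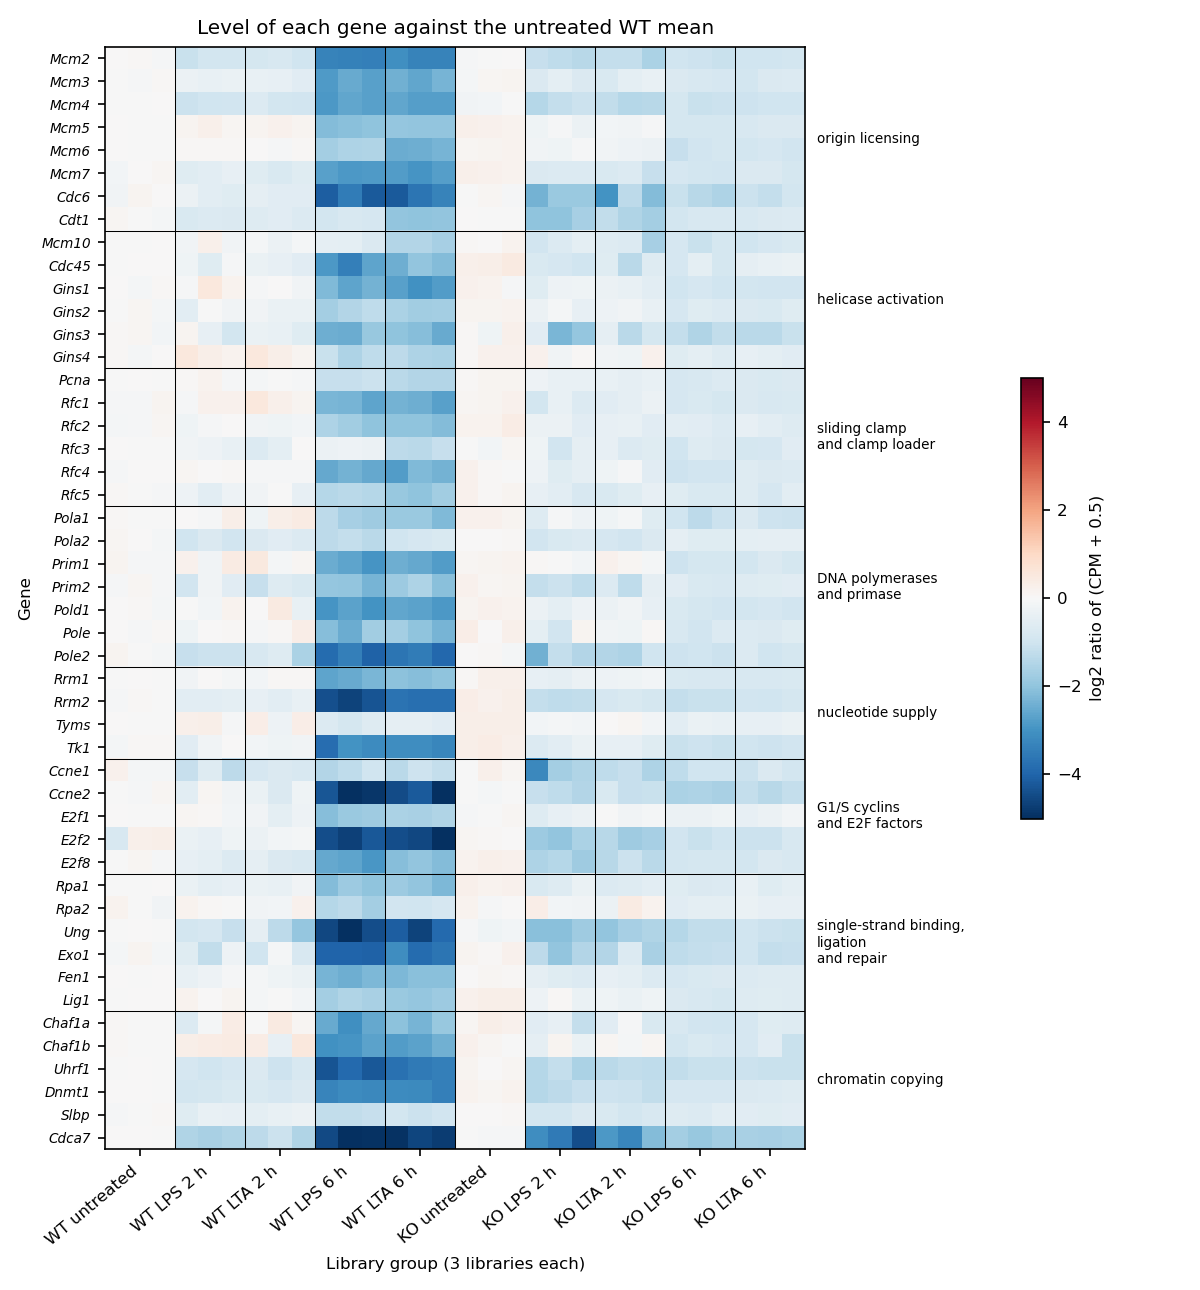
Level of each of the 48 genes (rows, by role) in each of the 30 libraries (columns, 3 per group) as the log2 ratio of CPM + 0.5 to the untreated WT mean. Blue is lower and red higher, and the color scale ends at -5 and 5. The darkest block is formed by the WT libraries of 6 h, with Cdca7, Ccne2, E2f2 and Ung among the lowest rows and Rfc3, Tyms and Pcna among the palest.

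Origin licensing genes encode the parts loaded at origins before S phase, and 8 of 8 fell in each genotype and with each ligand at 6 h. Mcm2 (ENSMUSG00000002870, chr6:88883474-88898780 on GRCm38), a subunit of the MCM helicase, was at 90.0, 92.0 and 85.4 CPM in untreated WT, at 8.42, 8.09 and 7.78 after 6 h of LPS and at 10.1, 8.45 and 8.47 after LTA. KO libraries were at 86.3, 88.4 and 90.8 CPM untreated, at 44.5, 43.3 and 41.0 with LPS and at 45.0, 45.0 and 46.4 with LTA. The untreated genotypes overlapped, and every treated WT library lay below every treated KO library. The log2 change with LPS was -3.46 ± 0.077 (SE) in WT and -1.04 ± 0.052 in KO, and the genotype difference in response was 2.42 ± 0.10 (edgeR's quasi-likelihood test, adjusted p = 3.8e-28). Mcm3, Mcm4, Mcm5 and Mcm7, further subunits of the ring, changed by -2.13 to -2.84 in WT with LPS and by -0.85 to -1.14 in KO. Cdc6 (ENSMUSG00000017499, chr11:98907801-98923940), the ATPase that loads the helicase and whose promoter is shown above, went from 14.8, 18.4 and 17.3 CPM to 0.488, 1.05 and 0.451 with LPS in WT. In KO it went from 16.8, 18.1 and 16.1 to 7.49, 6.05 and 5.40 CPM. All WT libraries with LPS were thus near 1 CPM or below, and the KO libraries between 5.40 and 7.49. The Cdc6 window shown above was placed by the RefSeq start and lies within the gene coordinates given here.

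Cdt1 (ENSMUSG00000006585, chr8:122568015-122573554), the partner of Cdc6 in loading, had another pattern. It was at 84.8, 78.5 and 72.9 CPM in untreated WT, at 42.0, 44.6 and 43.7 after LPS and at 19.7, 19.4 and 19.4 after LTA. In KO the values were 80.1, 78.7 and 77.6 untreated, 42.0, 45.0 and 45.5 with LPS and 45.6, 47.7 and 48.6 with LTA. After LPS the genotypes overlapped, and after LTA all WT libraries were below all KO libraries. The genotype difference was 0.02 ± 0.062 after LPS (adjusted p = 0.76), which under scaling by total counts became 0.55 (adjusted p = 2e-11), and 1.28 ± 0.071 after LTA (adjusted p = 1.2e-22). Mcm6, the remaining MCM subunit, was named after its values were seen because it also differed between the ligands in WT, with 39.7, 43.8 and 45.1 CPM after LPS and 22.6, 23.1 and 25.4 after LTA.

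Helicase activation genes, which turn the loaded ring into a moving helicase, fell in 6 of 6 cases in each of the 4 comparisons. Cdc45 (ENSMUSG00000000028, chr16:18780447-18811987), a core helicase subunit, went from 18.2, 18.7 and 18.7 CPM to 2.08, 1.29 and 2.59 with LPS and to 3.00, 4.33 and 3.69 with LTA in WT. In KO it went from 22.3, 22.7 and 25.7 to 10.0, 13.0 and 9.75 with LPS and to 13.3, 14.3 and 14.6 with LTA. In both genotypes it was lower with LPS than with LTA by edgeR's quasi-likelihood test. The log2 difference was -0.88 ± 0.24 in WT (adjusted p = 0.0028) and -0.36 ± 0.10 in KO (adjusted p = 0.044). The KO call was lost with DESeq2, without the 2 h libraries and when only the groups compared were fitted. Gins1, Gins2, Gins3 and Gins4 encode the GINS complex. Gins1 changed by -2.56 in WT and -1.08 in KO with LPS, and Gins2 by -1.49 and -0.87. Gins4 went from 24.3, 22.2 and 24.2 CPM to 10.6, 7.85 and 9.36 in WT and from 24.9, 27.6 and 27.7 to 15.4, 16.7 and 14.7 in KO. Gins3, whose promoter is shown above, had the fewest counts of the 48 in untreated WT, 215 over 3 libraries, and changed by -2.79 ± 0.26 in WT with LPS.

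Mcm10 (ENSMUSG00000026669, chr2:4989714-5012791), a scaffold of helicase activation, was another gene with a ligand-dependent level in WT. It was at 16.6, 16.8 and 17.1 CPM in untreated WT and at 12.3, 11.8 and 9.92 after LPS, but at 5.78, 5.74 and 5.0 after LTA. The KO values were 17.5, 17.2 and 19.2 CPM untreated, 9.14, 7.57 and 8.85 after LPS and 8.08, 9.29 and 9.64 after LTA. WT libraries with LPS were above KO libraries with LPS without overlap, and WT libraries with LTA were below KO libraries with LTA. KO against WT was -0.41 ± 0.11 with LPS (adjusted p = 0.0016), a direction that flipped to 0.11 (adjusted p = 0.39) under scaling by total counts, and 0.71 ± 0.14 with LTA (adjusted p = 1e-05). Its response to LPS differed between the genotypes by -0.51 ± 0.14 (adjusted p = 0.002), and by -0.0069 (adjusted p = 0.97) under scaling by total counts.

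Sliding clamp and clamp loader genes had the smallest median fall of the 8 roles in WT with LPS (-1.62, 6 of 6 lower). Pcna (ENSMUSG00000027342, chr2:132249162-132253314), the clamp, was at 392, 396 and 391 CPM in untreated WT, at 178, 178 and 184 with LPS and at 155, 141 and 143 with LTA. KO libraries had 406, 428 and 429.5 CPM untreated, 219, 227 and 244 with LPS and 236, 231 and 239.8 with LTA. Its genotype difference after LPS, 0.35 ± 0.045 (adjusted p = 1.1e-09), stands beside 2.41 ± 0.085 for Mcm2. Rfc4, a loader subunit, went from 16.9, 18.1 and 17.9 to 2.56, 3.05 and 2.59 CPM in WT and from 20.4, 18.4 and 17.2 to 8.40, 8.76 and 8.93 in KO. Rfc1, Rfc2 and Rfc5, the other subunits besides Rfc3, changed by -1.44 to -2.45 in WT with LPS and by -0.84 to -0.99 in KO.

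Rfc3 (ENSMUSG00000033970, chr5:151642756-151651242), a further loader subunit, was the least changed of the 48 in WT with LPS. It was at 31.0, 30.4 and 29.9 CPM untreated and at 24.5, 25.4 and 24.8 with LPS, a change of -0.29 ± 0.086 (adjusted p = 0.0023), and DESeq2 gave an adjusted p of 0.056. With LTA it was at 11.9, 11.8 and 13.4 CPM, below every LPS library. In KO the gene was at 15.1, 19.4 and 18.2 with LPS and at 16.2, 16.9 and 20.2 with LTA, from 30.4, 27.7 and 32.8 untreated. KO was thus below WT with LPS (-0.51 ± 0.094, adjusted p = 5.8e-06), which flipped to 0.016 (adjusted p = 0.88) under scaling by total counts, and above WT with LTA (0.52 ± 0.11, adjusted p = 5.3e-05).

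Among the 7 genes of the polymerases and primase, all fell in each genotype with each ligand. Pole2 (ENSMUSG00000020974, chr12:69201773-69228195), the second subunit of the leading strand polymerase epsilon, went from 18.8, 16.8 and 16.0 CPM to 0.732, 1.17 and 0.564 with LPS in WT. In KO it went from 17.6, 17.7 and 16.1 to 8.07, 8.28 and 7.80, so that the treated genotypes stood 9.63-fold apart (log2 difference 3.27 ± 0.23, adjusted p = 9.8e-19). Pola2, the regulatory subunit of polymerase alpha, fell least of the role, from 46.9, 44.5 and 40.5 to 17.3, 18.9 and 17.1 CPM with LPS in WT and from 44.5, 45.1 and 46.1 to 32.3, 28.6 and 29.0 in KO. In WT with LPS the catalytic subunit Pola1 changed by -1.65, the primase genes Prim1 and Prim2 by -2.92 and -2.17, Pold1 of polymerase delta by -3.04 and Pole, the catalytic subunit of polymerase epsilon, by -2.31. In KO the 7 genes lay between -1.36 (Pola1) and -0.60 (Pola2).

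Nucleotide supply genes held both a very large and a small fall. Rrm2 (ENSMUSG00000020649, chr12:24708241-24714146), the small subunit of ribonucleotide reductase, was at 141, 151 and 146 CPM in untreated WT, at 6.47, 5.39 and 6.88 with LPS and at 10.8, 10.4 and 10.3 with LTA. In KO its level was 183, 171 and 179.8 CPM untreated, 64.0, 68.0 and 67.1 with LPS and 75.3, 73.4 and 78.9 with LTA. Each of these groups was separate from the others of its genotype, and the response differed between genotypes by 3.12 ± 0.093 (adjusted p = 1.2e-34). Rrm1, the large subunit, changed by -2.50 in WT and -1.0 in KO with LPS, and Tk1, a thymidine kinase, by -3.40 and -1.44. Tyms, thymidylate synthase, went from 36.4, 35.6 and 35.1 to 21.7, 19.3 and 22.8 CPM with LPS in WT and from 43.5, 44.0 and 43.6 to 24.3, 28.6 and 27.8 in KO. Its response to LPS differed between genotypes by 0.05 ± 0.10 (adjusted p = 0.75) and its response to LTA by -0.19 ± 0.10 (adjusted p = 0.13), which flipped to 0.23 (adjusted p = 0.049) under scaling by total counts and was -0.27 (adjusted p = 0.036) with DESeq2. In 63.3% of libraries its deposited count was not a whole number.

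The cyclin E genes, which activate CDK2 at the start of S phase, had different values. Ccne2 (ENSMUSG00000028212, chr4:11191351-11204779) was at 29.8, 29.1 and 32.5 CPM in untreated WT and at 1.10, 0.351 and 0.564 with LPS. In KO Ccne2 was at 30.2, 28.5 and 30.3 untreated and at 9.80, 10.0 and 9.53 with LPS, so that the treated genotypes did not overlap. Ccne1 (ENSMUSG00000002068, chr7:38097984-38107534) was at 27.6, 22.2 and 22.2 CPM in untreated WT and at 8.30, 9.73 and 11.8 with LPS. In KO Ccne1 was at 23.9, 28.5 and 25.7 untreated and at 9.80, 11.8 and 11.7 with LPS, and the treated genotypes overlapped. KO against WT after LPS was 3.85 ± 0.23 for Ccne2 (adjusted p = 2.3e-21) and 0.15 ± 0.13 for Ccne1 (adjusted p = 0.33), the latter 0.67 (adjusted p = 1.2e-05) under scaling by total counts. After LTA the difference was 3.86 ± 0.21 for Ccne2 and 0.29 ± 0.13 for Ccne1 (adjusted p = 0.057, and 0.033 when only the groups compared were fitted).

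The 3 E2F factors among the 48 fell as well. E2f1 (ENSMUSG00000027490, chr2:154559407-154569892), an activating factor, went from 47.2, 45.5 and 45.8 to 10.1, 12.5 and 13.0 CPM with LPS in WT and from 44.1, 45.3 and 49.7 to 38.0, 37.9 and 39.9 in KO. Its fall in KO, -0.27 ± 0.062 (adjusted p = 0.00026), was the smallest of the 48, while its fall in WT was -1.95 ± 0.084. E2f2, a second activator, was at 20.9, 43.0 and 45.1 CPM in untreated WT, at 1.2, 0.937 and 1.47 with LPS and at 1.2, 1.08 and 0.217 with LTA. Its untreated WT replicate 1 was low beside the other two, and the standard error of its fall was the widest of the 48 (-4.87 ± 0.37). E2f8, a repressor of the family, changed by -2.79 in WT and -1.12 in KO.

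**Figure D3:**
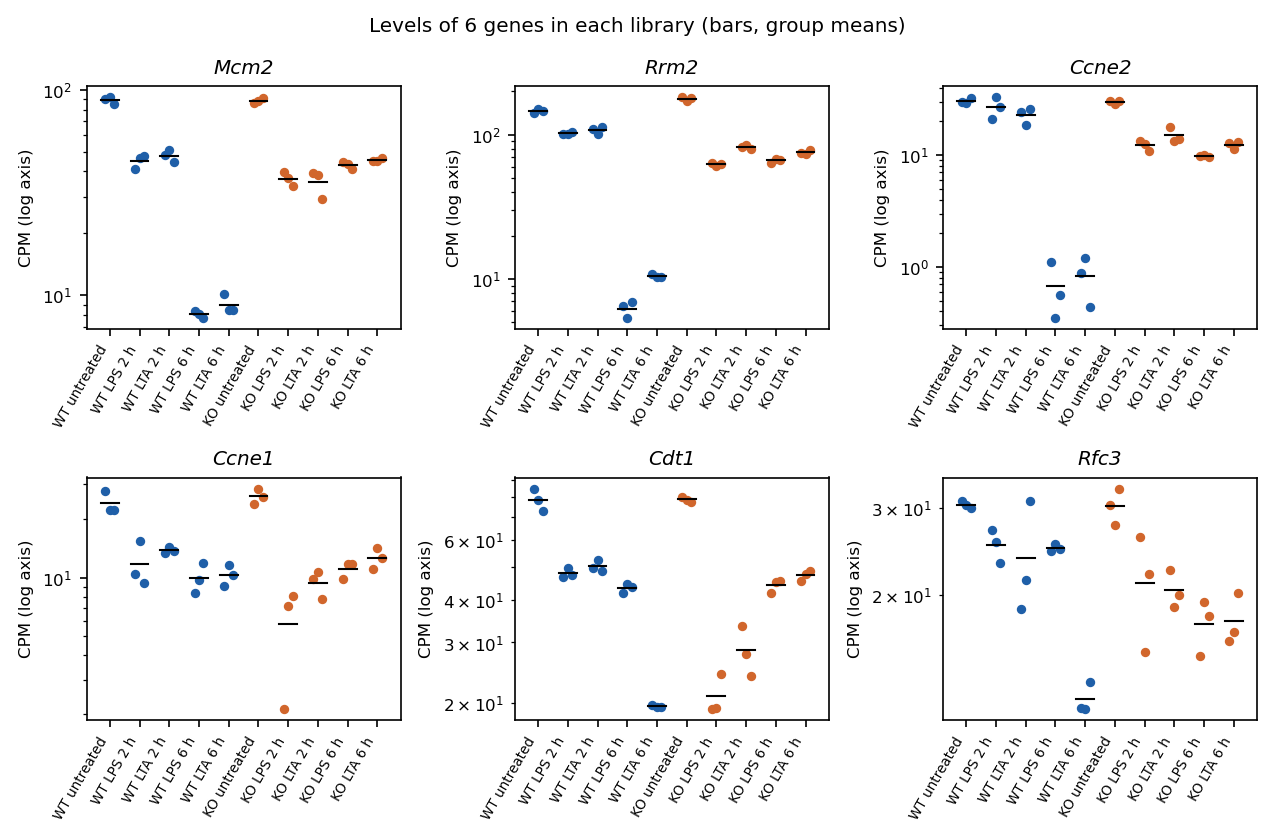
Level of 6 genes (y axes, TMM-normalised CPM on log axes that differ between panels) in each of 3 libraries of the 10 groups (x axes), with WT in blue, KO in orange and bars at group means. Mcm2, Rrm2 and Ccne2 fall below KO in WT at 6 h, Ccne1 overlaps between genotypes at 6 h, and Cdt1 and Rfc3 are lower with LTA than with LPS in WT at 6 h.

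Single-strand binding, ligation and repair genes fell in 6 of 6 cases in each comparison. Ung (ENSMUSG00000029591, chr5:114130386-114139323), which removes uracil from DNA, went from 19.8, 20.4 and 19.7 to 0.366, 0.117 and 0.451 CPM with LPS in WT and from 19.1, 16.9 and 18 to 7.16, 8.28 and 8.33 in KO. Rpa2, a subunit of RPA, went from 38.0, 32.7 and 29.0 to 12.1, 13.1 and 9.92 in WT and from 37.3, 32.1 and 34.0 to 22.1, 23.7 and 23.4 in KO. Exo1, an exonuclease of mismatch repair, had 6 counts in all over the 3 WT libraries with LPS, and its change of -5.50 ± 0.28 rests on them. Rpa1, the flap nuclease Fen1 and the ligase Lig1 changed by -2.03, -2.38 and -1.62 in WT and by -0.91, -0.85 and -1.08 in KO. In all, 7 of the 48 genes had under 30 counts over the 3 WT libraries with LPS and 8 over those with LTA, and none was at 0 in any group.

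Genes of chromatin copying had the largest median fall in WT with LPS (-3.20, 6 of 6 lower). Cdca7 (ENSMUSG00000055612, chr2:72476159-72486893), a partner of the remodeler HELLS, was at 22.0, 22.2 and 21.4 CPM in untreated WT and at 0.488, 0 and 0.226 with LPS. The KO libraries stood at 21.8, 21.1 and 20.9 untreated and at 6.42, 5.58 and 6.30 with LPS, above every treated WT library. Cdca7 had the largest fall of the 48 in each of the 4 comparisons (-6.45 and -5.99 in WT, -1.80 and -1.65 in KO for LPS and LTA). Slbp, which binds the stem-loop of histone mRNAs, fell least of the role, from 54.4, 55.0 and 58.4 to 23.4, 23.4 and 24.6 CPM in WT and from 56.8, 56.9 and 57.5 to 36.1, 35.0 and 38.6 in KO. Chaf1b, a subunit of the histone chaperone CAF-1, went from 18.3, 17.3 and 17.4 to 1.71, 1.88 and 2.37 in WT and from 20.6, 19.0 and 17.5 to 9.06, 10.2 and 9.60 in KO. Chaf1a of the same chaperone changed by -2.92 and -1.14. The DNA methyltransferase Dnmt1 and its recruiter Uhrf1 changed by -3.26 and -4.25 in WT and by -0.98 and -1.26 in KO.

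Across the 48 genes the responses to LPS at 6 h had a standard deviation of 1.44 (log2) in WT and 0.283 in KO. Spearman's rho between them was 0.67 (n = 48 genes, 2 separate sets of libraries), and the same value was found for LTA. Genes share cells, libraries and counting depth, so the coefficient is a description. Measured against the untreated mean of the same genotype, a median of 17.2% of a gene's level was left in WT with LPS and 20.7% with LTA, and 47.4% and 52.6% in KO. In WT 11 genes were left with under 10% after LPS and 9 after LTA, and in KO none was after either ligand. The share of all genes left with under 10% was not computed.

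**Figure D4:**
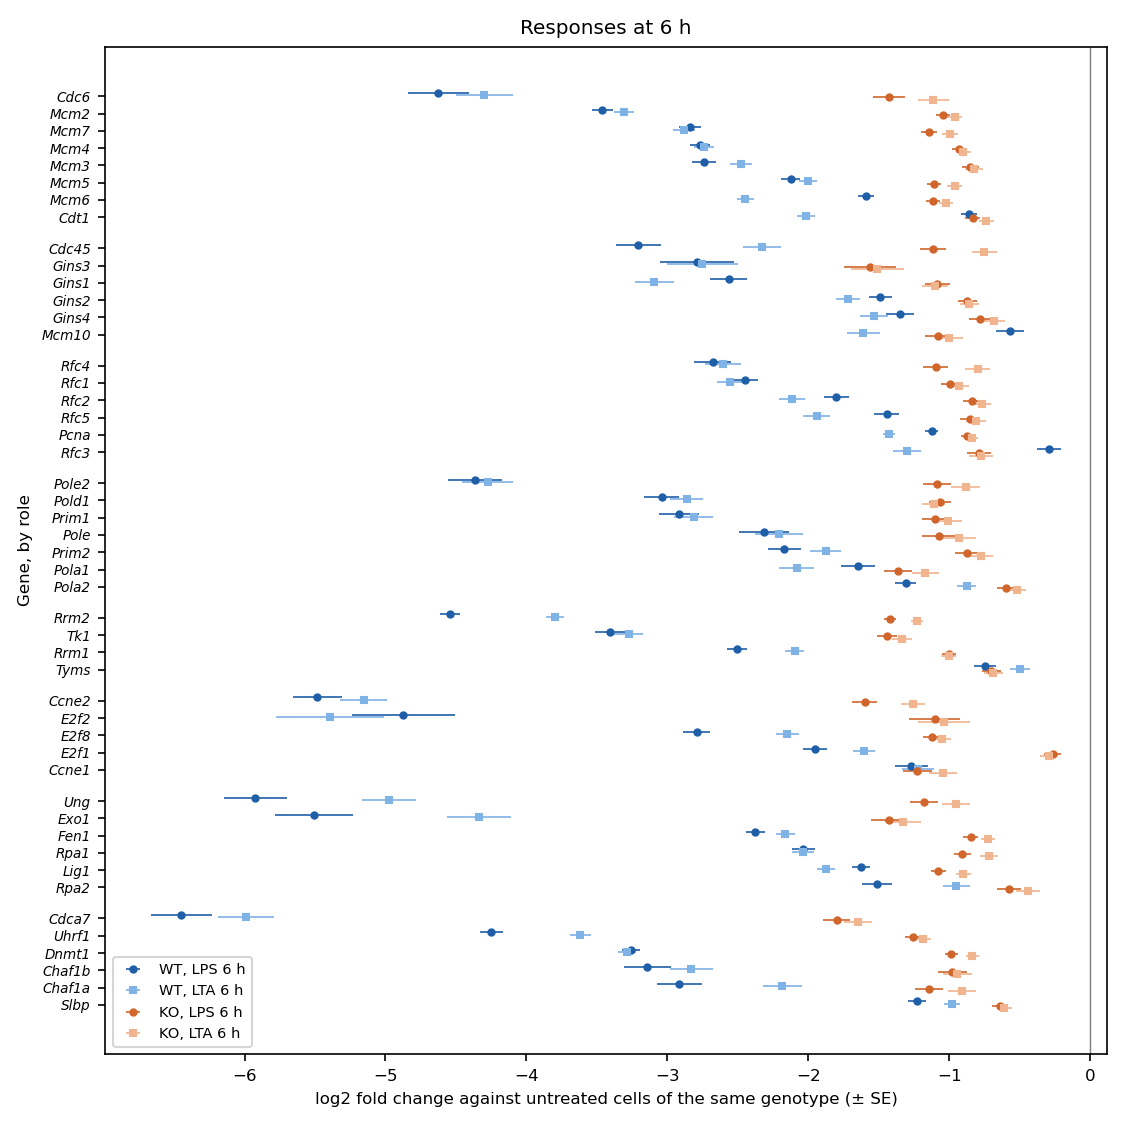
Log2 change ± SE at 6 h against untreated cells of the same genotype (x axis) for each of the 48 genes (y axis, grouped by role and ordered by the WT change with LPS), with WT in blue, KO in orange, LPS as circles and LTA as squares. WT values spread from -6.45 to -0.29 and KO values from -1.80 to -0.27, and Rfc3, Mcm10, Cdt1, Tyms and Ccne1 have WT values with LPS near the KO values or above them.

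After 6 h of LPS, 44 of the 48 genes were higher in KO than in WT, 2 were lower (Mcm10 and Rfc3) and 2 did not pass the test (Cdt1 and Ccne1), with a median of 1.64. After LTA 46 were higher, none was lower and 2 did not pass (Tyms and Ccne1), with a median of 1.55. Over all genes tested, 32.7% were higher and 30.6% lower in KO after LPS, and 30.5% were higher and 28.0% lower after LTA. A difference of at least 2-fold was called for 33 genes after LPS and 40 after LTA, against 11.9% and 10.7% of all genes. WT and KO libraries did not overlap for 45 of the 48 after LPS and 47 after LTA, as for 65.4% and 64.9% of all genes. The pair of comparisons shares no library, and 43 genes were higher in both, 43 of the 44 and of the 46. With so many of the 48 called in each, a large overlap follows from the counts. The share of all genes higher in both was not computed. The test of the genotype difference in response called 42 genes higher and 2 lower for LPS (27.0% and 23.5% of all genes) and 46 higher and none lower for LTA (24.8% and 20.1%). WT libraries of 6 h had the smallest normalisation factors, and under scaling by total counts the median of all genes moved to 0.54 in this comparison with LPS and to 0.44 with LTA, where 46 and 48 of the 48 genes were then higher and none was lower.

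In WT some of the 48 genes also differed between the ligands at 6 h. With LPS 9 were higher than with LTA and 11 were lower, against 17.9% and 14.0% of all genes. The count of higher genes is thus near the share of all genes. Scaling by total counts gave 6 higher and 13 lower. The higher ones were Cdt1 (1.16), Mcm10 (1.04), Rfc3 (1.01), Mcm6 (0.86), Rfc5 (0.50), Pola1 (0.44), Rfc2 (0.31), Pcna (0.30) and Lig1 (0.25), of which Pola1, Rfc2 and Lig1 did not pass with total counts. Pola1 and Rfc2 also did not pass with DESeq2 (adjusted p = 0.057 and 0.058), with no filter (0.066 and 0.053), in a fit of only the groups compared (0.065 and 0.074) or with the animal as a block (0.053 and 0.056). With edgeR without the 2 h libraries Rfc2 did not pass either (adjusted p = 0.063). The genes lower with LPS included Cdc45 (-0.88), Rrm2 (-0.75), Chaf1a (-0.73), E2f8 (-0.64) and Uhrf1 (-0.63). In KO 2 of the 48 differed, Cdc45 and Rrm2 (-0.19 ± 0.048, adjusted p = 0.013), both lower with LPS, against 1.34% of all genes higher and 1.32% lower. Neither passed without KO LTA replicate 3 or in a fit of only the groups compared. Cdc45 also did not pass with DESeq2 (adjusted p = 0.061) or with edgeR without the 2 h libraries (0.056). Rrm2 did not pass with edgeR and no filter (adjusted p = 0.062). In turn Dnmt1 passed with DESeq2 (adjusted p = 0.045) and Lig1 with edgeR without the 2 h libraries (0.047). The test of whether the ligand difference itself differed between the genotypes called 7 genes higher and 9 lower in KO than in WT (9.14% and 13.5% of all genes), 9 and 7 with total counts. The largest of these were -1.25 ± 0.10 for Cdt1, -1.12 ± 0.18 for Mcm10 and -1.02 ± 0.14 for Rfc3 (adjusted p = 3.3e-16, 1.1e-06 and 7.7e-08).

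At 2 h the genotypes differed in the opposite direction. After LPS 24 of the 48 genes were lower in KO than in WT and none was higher (median -0.41), against 7.24% and 9.11% of all genes. After LTA 17 were lower and none was higher (median -0.34), against 5.21% and 7.83%. The difference was at least 2-fold for 8 genes after LPS and 3 after LTA (2.39% and 1.52% of all genes), and the genotypes did not overlap for 35 and 28 genes (28.7% and 27.0%). Leaving out 1 library brought the first count to 16 (without KO LPS replicate 2, WT LPS replicate 2 or WT LPS replicate 3) and the second to 11 (without KO LTA replicate 3). The libraries of these 2 comparisons are separate, and the share of all genes lower in both was not computed. Of the 48 genes 15 were lower in both, 15 of the 24 and of the 17. They were Mcm5, Mcm6, Cdc6, Cdt1, Mcm10, Pcna, Rfc1, Rrm2, Ccne2, E2f2, E2f8, Uhrf1, Dnmt1, Slbp and Cdca7. With no filter on low counts Mcm6 (adjusted p = 0.076), Mcm10 (0.057) and E2f2 (0.057) did not pass with LPS, nor Mcm5 (0.065) and E2f2 (0.075) with LTA. Between LPS and LTA at 2 h none of the 48 differed in WT by edgeR or by DESeq2 (3 had an unadjusted p under 0.05 with edgeR), against 1.20% of all genes. In KO 1 did, Rrm2 (-0.41 ± 0.085, adjusted p = 0.0033), against 1.14% of all genes higher and 0.258% lower in KO, and it did not pass without KO LPS replicate 2.

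Cdca7 had the widest gap after 2 h of LPS, with 7.38, 6.83 and 7.5 CPM in WT and 2.12, 1.43 and 0.539 in KO after LPS (-2.45 ± 0.42, adjusted p = 8.6e-06). Its KO values rest on 8 counts over the 3 libraries. Cdc6 was at 13.5, 11.4 and 10.9 CPM in WT and 2.83, 4.29 and 4.32 in KO (-1.56 ± 0.33, adjusted p = 0.00024). Cdt1 was at 46.7, 49.5 and 47.2 in WT and 19.1, 19.3 and 24.3 in KO (-1.20 ± 0.13, adjusted p = 2.4e-10). In each of these the genotypes did not overlap. Rrm2 was at 101, 101 and 104 CPM in WT and 63.7, 61.1 and 62.6 in KO after LPS, and after LTA at 109.7, 102 and 113 in WT and 82.5, 85.1 and 79.7 in KO, again without overlap. Ccne2 was at 20.9, 33.0 and 26.6 in WT and 13.4, 12.5 and 10.8 in KO after LPS (-1.14 ± 0.19, adjusted p = 6.5e-06). Ccne1 had 1 KO library far below the others, with 2.12, 7.15 and 8.09 CPM against 10.4, 15.4 and 9.37 in WT, and did not pass the test (-0.86 ± 0.32, adjusted p = 0.055). It passed with DESeq2 and in a fit of only the groups compared (adjusted p = 0.023 in each), with total counts (0.03), with no filter (0.037) and with RLE factors (0.048).

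Of the 24 genes lower in KO at 2 h of LPS, 22 were higher in KO at 6 h, and of the 17 at 2 h of LTA all 17 were. Of all 48 genes, 44 were higher in KO at 6 h with LPS and 46 with LTA. Such counts are therefore near what the 6 h calls alone give, and the share over all genes was not computed. The 2 h and 6 h comparisons share no library but cross the library sets. The difference between the genotype differences at 6 h and 2 h, a comparison added after the data were seen, was above 0 and past the threshold for 46 of the 48 with LPS (median 2.12) and for 46 with LTA (median 1.90), against 22.0% and 20.1% of all genes. The genotype difference in the response from untreated to 2 h, also added, was lower in KO for 35 genes with LPS and 30 with LTA, against 7.90% and 6.33% of all genes. Against untreated cells, the 2 h libraries gave 2 higher and 21 lower in WT with LPS and 2 higher and 24 lower with LTA (19.5% and 25.5%, then 19.0% and 23.9%, of all genes). In KO they gave none higher and 44 lower with LPS and none higher and 41 lower with LTA (26.8% and 30.4%, then 26.3% and 29.7%). Gins4 was higher in WT at 2 h with both ligands, at 33.8, 29.0 and 26.6 CPM with LPS and 34.6, 28.6 and 26.0 with LTA against 24.3, 22.2 and 24.2 untreated, and both calls were lost with no filter (adjusted p = 0.13 and 0.14). The other higher genes were Chaf1b with LPS (0.38 ± 0.15, adjusted p = 0.028, and 0.074 with no filter) and Rfc1 with LTA (0.30 ± 0.093, adjusted p = 0.0071). Time and library set cannot be told apart in these values.

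**Figure D5:**
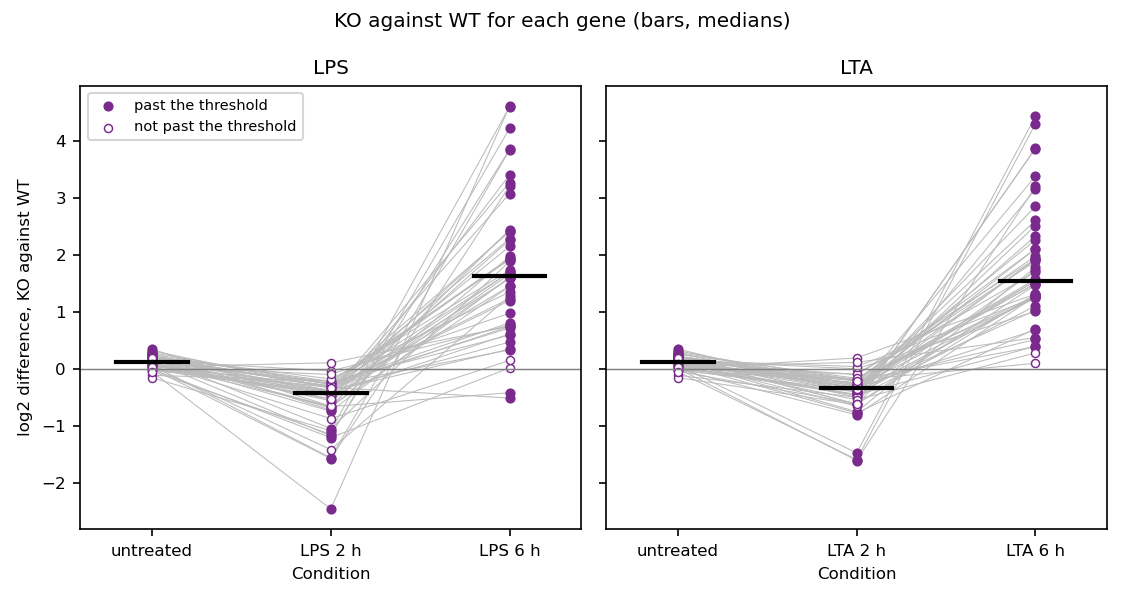
Log2 difference of KO against WT (y axis) for each of the 48 genes, joined by lines, in untreated cells and after 2 h and 6 h (x axis), for LPS on the left and LTA on the right, with filled points past the threshold, open points not past it and bars at medians. The medians are 0.12 untreated, -0.41 and -0.34 at 2 h and 1.64 and 1.55 at 6 h.

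In untreated cells 12 of the 48 genes were higher in KO and none was lower (median 0.12), against 5.97% and 7.47% of all genes, and 40 of the 48 had a difference above 0. The genotypes did not overlap for 23 of the 48, as for 30.8% of all genes. All 4 nucleotide supply genes were among the 12, with Tk1 at 0.32 ± 0.062, Tyms at 0.29 ± 0.063, Rrm2 at 0.28 ± 0.041 and Rrm1 at 0.20 ± 0.049. The others were Mcm5, Mcm7, Cdc45, Rfc2, E2f8, Rpa1, Lig1 and Dnmt1, with Cdc45 the largest (0.35 ± 0.082, adjusted p = 0.0014). A fit of the untreated groups alone called 19 genes higher. E2f2 was at 0.07 ± 0.16, and without the low WT library at -0.22 (adjusted p = 0.034).

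Other genes of the same processes were followed as lists. Beside their counts, 36.6% of all genes were called higher and 36.1% lower in WT with LPS, and 25.7% and 26.6% in KO. Of 34 further origin and fork factors, 28 fell and 2 rose (Orc4 and Mcmbp) in WT with LPS, with log2 changes of -5.0 for Dscc1, -4.65 for the licensing inhibitor Gmnn and -4.36 for the checkpoint mediator Clspn. In KO 29 fell and 1 rose. Of 15 genes of the fork checkpoint and recombination, 14 fell in WT and 1 rose (Atrip), among them Brca2 (-4.52), Brca1 (-4.11) and Msh6 (-3.61). Of 12 further chromatin copying genes 10 fell and 1 rose, with Atad2 at -3.90, Tonsl at -4.24 and Mms22l at -3.60. Of 8 further nucleotide supply genes 5 fell, among them Shmt1 (-3.21) and Dut (-2.80), and 2 rose. Samhd1, which breaks down the nucleotides that ribonucleotide reductase helps to make, rose by 2.26 ± 0.045 in WT and changed by -0.30 in KO.

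The regulators of G1 were mixed. Of 12 further E2F, DP and pocket protein genes, 8 fell and 4 rose in WT with LPS, and E2f7 (-4.71), Tfdp2 (-3.15) and E2f6 (-2.43) had the largest changes. Of 10 G1 cyclin and CDK genes 9 fell and 1 rose. Ccna2 changed by -3.87, Ccnd1 by -3.44 and Ccnd2, the one that rose, by 3.43 ± 0.048, while in KO Ccnd2 changed by -1.11. Ccnd1 was at 289, 530 and 514 CPM in untreated WT, with replicate 1 low as for E2f2. With LPS in WT it was at 43.1, 42.5 and 37.2. Of 7 CDK inhibitor genes 4 rose and 1 fell. Cdkn1a, which encodes p21, changed by 2.74 in WT and 0.87 in KO, Cdkn1b (p27) by 1.34 in WT against -0.29 in KO, and Cdkn2b by 1.77 and 2.91, while Cdkn2c changed by -3.08 and -1.33. Of 9 tested MYC network genes 3 rose and 5 fell. Myc changed by -0.94 ± 0.085 in WT and by 1.89 ± 0.068 in KO, and the antagonist Mxd1 by 4.34 and 0.77, with Mycl at 4.23 and 3.08 and Mxd3 at -2.50 and -1.82.

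Mitosis genes, which act after replication, fell in 26 of 26 cases in WT with LPS (median -2.30) and in 26 of 26 in KO (median -0.83), with Ttk at -3.72, Bub1b at -3.54 and Aurkb at -3.53 in WT. In untreated cells 25 of the 26 were higher in KO (median 0.39), against 5.97% of all genes and beside 12 of the 48 replication and G1/S genes. Mki67, a proliferation marker in that list, was at 34.4, 35.0 and 35.8 CPM in untreated WT, 31.4, 26.6 and 24.1 after 6 h of LPS and 47.0, 57.5 and 50.1 after LTA. It thus fell with LPS (-0.36 ± 0.083) and rose with LTA (0.56 ± 0.073, adjusted p = 1.8e-09), the latter -0.041 under scaling by total counts. In KO it fell with both ligands (-0.52 ± 0.073 with LPS and -0.47 ± 0.074 with LTA).

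Marker genes of the cultured cells and of other bone marrow cells were read in the same libraries. The 8 macrophage markers were present in every group, and their sum was 28220 to 29650 CPM of the library total in untreated WT, 14160 to 15420 after 6 h of LPS in WT and 22690 to 24080 in KO, most of it Lyz2. Of 8 progenitor markers 7 had a row, and their sum was 44.5 to 49.3 CPM in untreated WT, 11.3 to 13.9 after 6 h of LPS in WT and 24.8 to 29.9 in KO. Nearly all of it was Cd34, at 40.3 ± 2.29 TMM-normalised CPM in untreated WT and 16.7 ± 1.37 after LPS, while the granule genes Elane, Prtn3 and Ctsg were all at 0 in WT with LPS, and Elane and Ctsg were at 0 in untreated WT. The 6 dendritic cell markers summed to 1.88 to 2.08 CPM in untreated WT and 9.0 to 11.4 after LPS, nearly all of it Ccr7, with Clec9a at 0 after LPS and Xcr1 at 0 before it. In KO after LPS they summed to 1.78 to 2.44. The 7 neutrophil markers summed to 25.5 to 32.3 CPM in untreated WT, 33.0 to 38.0 after LPS in WT and 23.3 to 27.9 in KO. The 8 fibroblast markers summed to 190.2 to 346.8 CPM at 2 h and 26.4 to 38.7 elsewhere, and did not move together. Fn1 had 198 to 461 counts a library at 2 h and 5 to 23 elsewhere, while Thy1 had 0 to 2 at 2 h and 239 to 363 elsewhere, and Dcn, Lum and Pdgfra had 0 or 1 at 2 h. The 8 erythroid markers summed to 6073 to 6579 CPM in untreated WT and 5909 to 7733 after 6 h of LPS in WT. In KO they summed to 5599 to 7105 after 6 h of LPS, and in the 2 h libraries to at most 0.691. The part of all these marker genes in the results above was not tested.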

How the data were processed

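RNA of mouse macrophages was sequenced in 30 libraries, 10 groups of 3. The authors deposited 1 table of expected counts per gene, of which 25.2% of the values above 0 were not whole. The submitters' processing notes name STAR 2.7.11, fastp 0.24.0, featureCounts, Subread 2.1.1 and SAMtools 1.22.1, and as builds GRCm38 and mm10. No source used here gives the RNA selection, the strand setting or the release of the annotation. Symbols and coordinates are from GENCODE M21 on GRCm38.

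Counts were rounded to whole numbers, ties to even. Genes passing filterByExpr (minimum count 10, minimum total 15) were fitted with edgeR 4.0.16 (R 4.3.3, limma 3.58.1), with TMM factors of 0.691 to 1.151, 1 coefficient per group over all 30 libraries and 20 residual degrees of freedom. Each comparison used the quasi-likelihood test with Benjamini-Hochberg adjustment over 15119 genes at 0.05. Levels are TMM-normalised CPM, and standard errors are the log2 difference divided by the root of F. The edgeR fit was also run on simulated counts, for WT with LPS at 6 h against untreated only. There a small part of the genes was changed, unlike in the data.

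The p-values of a gene rest on the spread of libraries within groups, estimated jointly over all groups, with no term for the animal. There were 3 animals per genotype, and libraries of 1 animal in different groups were treated as independent. Depth sets the precision: 3 counts are 0.222 to 0.282 CPM in the untreated and 6 h libraries, and at 2 h 1.13 to 2.25 CPM.

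The 48 genes, the other gene lists and the tests were chosen with earlier results of these data known. Values in every library are given, in each role, for the genes with the largest and the smallest change in WT after 6 h of LPS, for genes that went against their role, and for Mcm2, Pcna, Ccne1, Ccne2, E2f1 and Rrm2. From each other list up to 3 called genes with the largest change are named, plus Myc, Cdkn1a, Cdkn1b, Ccnd1, Ccnd2 and Mki67. Other genes with library values (Mcm6, E2f2), those in short lists and Orc4, Mcmbp and Atrip were named after their values were seen. Alternatives were other scaling (edgeR's RLE factors, total counts), DESeq2 1.42.0, other filters and other rounding. Further ones were fits of fewer groups, a replicate block and leaving out each library.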

Additional observations from a re-analysis of the deposited data

Results flagged for a closer look

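The response to a ligand differed between WT and KO, by the test of that difference, for 44 of the 48 genes with LPS at 6 h and for 46 with LTA at 6 h. Of all genes, 27.0% were called higher and 23.5% lower with LPS, and 24.8% and 20.1% with LTA. The difference between the ligands at 6 h itself differed between the genotypes for 16 genes. Of these, 7 were higher and 9 lower in KO, against 9.14% and 13.5% of all genes. For the 2 h libraries, which are a separate set with no untreated library, the genotype difference in response was past the threshold for 35 genes with LPS and 30 with LTA, all lower in KO. Of all genes 7.90% and 6.33% were lower in these tests. The KO against WT difference at 6 h was higher than that at 2 h for 46 genes with LPS and for 46 with LTA, comparisons added after the data were seen. For all genes the shares were 22.0% with LPS and 20.1% with LTA.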

How the results depend on the processing

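In WT and KO, the 6 h responses to LPS and LTA kept 48 lower genes in every alternative run, except DESeq2 with 47 in WT with LPS, where Rfc3 was at an adjusted p of 0.056. Scaling by total counts moved the median of all genes to -0.66 in WT with LPS, -0.58 in WT with LTA and -0.19 and -0.18 in KO. Under it the sign turned for Csf1r, the M-CSF receptor gene, in WT (-0.66 with LPS, -0.43 with LTA), for Mki67 in WT with LTA (-0.041), for Mcm10 and Rfc3 in KO against WT after LPS (0.11 and 0.016), for the genotype difference in response of Mki67 and Rfc3 to LPS (0.34 and 0.00057) and for that of Tyms to LTA (0.23). The cause was not tested. The KO against WT difference of E2f2 in untreated cells ran from -0.22 (without WT replicate 1) to 0.26 with 1 library left out.

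For KO against WT untreated, 12 genes were called, 19 in a fit of only the groups compared and 9 to 13 with 1 library left out. At 2 h the counts with 1 library left out were 16 to 21 with LPS (24 with all) and 11 to 15 with LTA (17 with all), and for the genotype difference in the LTA 2 h response 19 to 30 (30 with all), with 19 without KO LTA replicate 3 and 20 without WT LTA replicate 1. For LPS against LTA in KO at 6 h, 2 genes were called, 1 with no filter, 0 in a fit of only the groups compared, 3 with total counts and 0 to 2 with 1 library left out. At 2 h in KO the count was 0 to 1 with 1 library left out. The cause was not tested.

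The labels give 3 animals per genotype and do not say that a replicate number marks the same animal in each group. Deviations of same-numbered libraries correlated at -0.19 to 0.19 in WT and -0.344 to 0.15 in KO (untreated and 6 h), over 0.1 in 3 of 9 and 1 of 9 pairs. With the replicate block the count for KO against WT untreated was 13 against 12, and for LPS against LTA in WT at 6 h 18 against 20. The 2 h libraries limit what can be seen: 5 of the 48 genes had under 30 counts over the 3 KO libraries with LPS.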
